A study of Mus musculus with 8 samples.

Results

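The genes described here are 10 receptors by which natural killer (NK) cells read other cells, namely Klrb1c, Klrc1, Klrc2, Klrd1, Klrk1, Klre1, Klra4, Klra7, Klra8 and Ncr1. They were taken by name from the 17921 genes of the count table, and all 10 were present in it. Their transcripts were followed in single cells of mouse lung grafts, in the 1011 cells that the authors labelled natural killer cells and the 5071 that they labelled T cells, of 20778 cells in all. The grafts came from 8 male mice, each a separate animal. In the 5 mice of the control group (B6→B6) the left lung of a C57BL/6 (B6) donor was placed in a B6 recipient, and in the 3 mice of the other group (HLA→B6) the donor was a B6 mouse with a human HLA-A2.1 transgene, and the recipient again B6. All were examined 1 month after transplantation, and none was given immunosuppression. Recipient and donor cells of a graft share the B6 background, so a cell's origin in donor or recipient was not told apart here. Each graft gave 1 library of transcript 3′ ends in droplets (10x Genomics, 10000 cells loaded), in which a tag on each captured molecule (a unique molecular identifier, UMI) lets repeated reads of it be counted once.

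NK cells kill infected, transformed or foreign cells without a rearranged antigen receptor, and the decision is set by the balance of activating and inhibitory receptors at the contact. In the mouse most of these receptors are lectin-like proteins whose genes lie together in the NK gene complex, and each NK cell uses only some of them. Klrd1 (CD94) pairs with the product of Klrc1 to give an inhibitory receptor, or with that of Klrc2 to give an activating one, and both pairs bind the MHC class Ib molecule Qa-1. Klrk1 encodes NKG2D, an activating receptor for ligands that stressed cells display, and Klrb1c encodes the activating receptor NK1.1 that defines NK cells in B6 mice. Klra4 (Ly49D) and Klra8 (Ly49H) are activating members of the Ly49 family, and Klra7 (Ly49G) is an inhibitory member that binds classical MHC class I. Ncr1 encodes NKp46, an activating receptor of the immunoglobulin superfamily and the only gene of the 10 whose product is not lectin-like. Several of these receptors are also carried by CD8+ and γδ T cells.

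On the genome build GRCm38 the 9 lectin-like genes lay on chromosome 6, between Klrb1c (128778485 to 128789215, minus strand) and Klra7 (130218605 to 130233322, minus strand). Klre1 (129577905 to 129585827) and Klrd1 (129591782 to 129598775), both on the plus strand, were neighbours, followed by Klrk1 (129610323 to 129623864), Klrc2 (129647496 to 129660689) and Klrc1 (129666015 to 129678973) on the minus strand. Klra4 (130043731 to 130067271) and Klra8 (130115226 to 130129898) lay on the minus strand as well. Ncr1 lay apart on chromosome 7 (4337724 to 4345164, plus strand). All 10 are annotated as protein coding. Where transcripts of 2 genes end alike, counts of 3′ ends can be split between them: 30.6% of windows of 90 bases in the last 400 bases of Klrc1 transcripts also occurred in Klrc2, 9.19% of those of Klrc2 occurred in Klrc1, 8.09% of those of Klra7 in Klra13-ps, and 7.07% of those of Klrb1c in Klrb1a or Gm44511. For the other 6 genes, Klra4 and Klra8 included, no such window was shared. The search was for exact matches and covered only genes whose names begin with Klr, Ncr, Clec or Gm.

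Depth was 103566 to 409732 UMIs in the NK cells and 350626 to 2353185 in the T cells of a mouse, from 56 to 288 NK cells and 147 to 1470 T cells. The cell labels were set beside marker genes, which is a description, since the labels were drawn from the same counts. In all 8 mice, 12 of 12 NK markers were higher in the cells labelled NK than in those labelled T. Ncr1 and Klrb1c, which are among the 10 receptors, were 2 of these markers. In the same contrast 11 of 11 T cell markers were lower. A UMI of Cd3d, Cd3e or Cd3g was found in 4.85% of the NK cells and 94.8% of the T cells. The summed level of the 7 markers of group 1 innate lymphoid cells was 19.0 to 102 CPM in NK cells (counts scaled to 1000000 UMIs of that cell type in a mouse), against 410.2 to 1734 in T cells. In pooled T cells the highest of the 7 were Il7r (457 CPM) and Cxcr6 (438 CPM), while Itga1 was closer, at 23.3 CPM against 16.1 in NK cells. The contrast with T cells therefore does not show whether innate lymphoid cells lie among the NK cells. Cluster 7 of the T cells stood apart. Its 954 cells all came from B6→B6 replicate 4, 46.8% of them held a UMI of Rag1 and 50.2% one of Dntt, genes of antigen receptor rearrangement in immature lymphocytes, against 0 and 0.34% of the 4117 cells of T cell cluster 1. Each of the 10 receptor genes was found in 0 to 0.484% of the cells of cluster 7 at equal depth, so results on T cells are given with and without it. Some barcodes recurred between libraries more often than the rest (5 of 28 pairs), among B6→B6 replicates 1, 2, 3 and the HLA→B6 library of replicate 2. An alternative that left out cells with shared barcodes removed 23 NK and 130 T cells. It was not limited to the libraries just named. T cells went from 1470 to 1439 in B6→B6 replicate 4, for example, and from 1147 to 1115 in HLA→B6 replicate 1.

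The question of the first comparison was how far each receptor separated NK cells from T cells of the same graft. All 10 were higher in NK cells than in T cells in 8 of 8 mice, with or without cluster 7, as were 14.5% of the 5660 genes with enough counts in these cells. The median over the 10 genes of the log2 ratio of CPM, NK over T with 1 CPM added to each, was 4.34, against 0.17 over those 5660 genes. These labels were drawn by the authors from the same counts, so the contrast is a description and was not tested.

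Klra4 and Klra8, the 2 activating Ly49 genes, were almost absent from T cells. Klra4 stood at 890.8 to 1506 CPM in NK cells of the 8 mice (median 1135), and all T cells together held 5 of its counts against 1798 in NK cells, a ratio of pooled CPM of 2034 (95% interval from counting alone 870.0 to 6272). T cells of 5 mice had none. Klra8 stood at 809 to 1526 CPM in NK cells (median 1185), with 15 counts in T cells against 1849 (ratio 697, 422 to 1248), and 9 of the 15 were in HLA→B6 replicate 3. Ncr1 followed, at 795 to 1210 CPM in NK cells (median 1122) and 71 counts in T cells, a ratio of 135 (106 to 173). Of all counts of a gene in the 20778 cells, NK cells held 97.3% for Klra4, 93.8% for Klra8 and 92.3% for Ncr1.

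Klrb1c was at 1035 to 1530 CPM in NK cells (median 1356) and at 18.8 to 57.0 CPM in T cells. The ratio of its pooled levels was 38.8 (34.4 to 43.8). Klre1, which encodes a lectin-like receptor that pairs with KLRI proteins, was at 1097 to 1635 CPM in NK cells and 25.2 to 99.0 CPM in T cells, a ratio of 23.3 (21.2 to 25.6). The inhibitory Ly49 gene, Klra7, differed from its 2 activating relatives, since T cells held 335 of its counts (6.93 to 55.1 CPM) against 925 in NK cells (467 to 817 CPM), a ratio of 15.6 (13.8 to 17.8).

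The 2 genes with the closest levels in both cell types, Klrc1 and Klrd1, encode the chains of the inhibitory receptor for Qa-1. Klrc1 stood at 467 to 686 CPM in NK cells (median 562) and 22.3 to 221 CPM in T cells, and its ratio was 4.71 (4.31 to 5.14). More of its counts came from T cells (1115) than from the fewer NK cells (928). Klrd1 reached 1409.6 to 1850.0 CPM in NK cells and 146 to 442 CPM in T cells, a ratio of 5.68 (5.38 to 6.00). The activating Klrk1 and Klrc2 were less shared. The ratio was 8.91 (8.39 to 9.47) for Klrk1, at 1124 to 2192 CPM in NK cells and 55.4 to 251 CPM in T cells, and 11.8 (10.6 to 13.1) for Klrc2, at 591 to 772 CPM in NK cells and 18.8 to 88.8 CPM in T cells. Of the UMIs of Klrc1 and Klrc2 together, Klrc1 gave 39.5% to 49.7% in the NK cells of a mouse and 50.0% to 72.0% in its T cells, so that the share was higher in T cells in all 8 mice. The T cell value of B6→B6 replicate 5 rested on 15 UMIs of Klrc1 and 7 of Klrc2, and the lowest, in replicate 4, includes cluster 7.

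**Figure D1:**
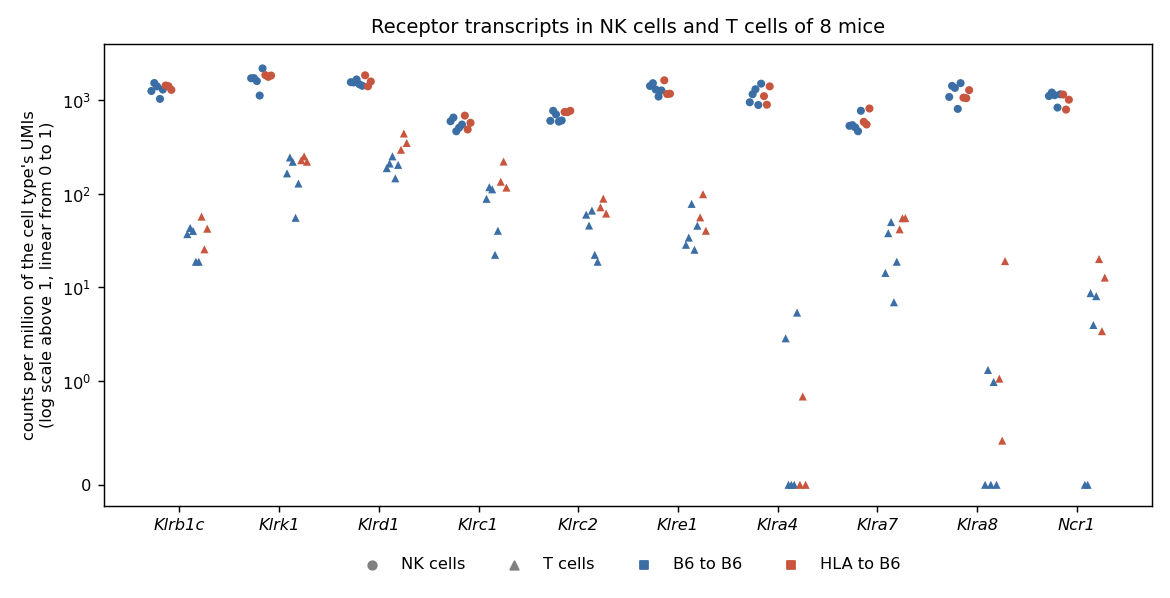
CPM in a cell type (vertical axis, log scale above 1) for each receptor gene, with circles for NK cells and triangles for T cells of each mouse, blue for B6→B6 (n = 5) and red for HLA→B6 (n = 3). NK cells lie above T cells for each gene, and triangles lie at 0 for Klra4 in 5 mice, Klra8 in 3 and Ncr1 in 2.

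Counted on 3′ ends, where 1 molecule gives 1 UMI whatever its length, the mean level over the 8 mice ran from Klrk1 (1731 ± 299 CPM, SD, n = 8) through Klrd1 (1568 ± 143), Klrb1c (1335 ± 151), Klre1 (1325 ± 188), Klra8 (1201 ± 237), Klra4 (1155 ± 237) and Ncr1 (1051 ± 156) to Klrc2 (694 ± 79.5), Klra7 (598 ± 127) and Klrc1 (566 ± 78.0). A gap larger than the spread between mice lay between Ncr1 and Klrc2, in the same order in 8 of 8 mice. The other neighbours in this order overlapped, and each kept its place over the next in 4 to 7 of the 8 mice. The part of shared 3′ sequence in the low place of Klrc1 was not tested.

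A level does not say how many cells carry a transcript, so the share of cells in which a gene was found was taken at equal depth, the share to be found on average once each cell is thinned at random to 1000 UMIs. This kept 888 NK cells and 3906 T cells. Klrk1 was found in 78.6% of NK cells (65.4% to 87.3% over mice), Klrd1 in 75.5% (71.7% to 79.5%), Klre1 in 73.0% (65.3% to 79.2%), Klrb1c in 71.5% (62.5% to 75.2%) and Ncr1 in 62.0% (48.4% to 70.4%). The Ly49 genes and the Klrc genes were found in fewer cells, Klra8 in 49.3% (41.5% to 57.4%), Klrc2 in 47.2% (42.7% to 51.7%), Klra4 in 44.4% (38.4% to 53.1%), Klra7 in 33.5% (25.4% to 43.4%) and Klrc1 in 30.6% (24.6% to 36.7%). Klra4 and Ncr1 thus had close mean levels in CPM, while Ncr1 was found in the larger share of cells in each of the 8 mice. Without thinning, Klrb1c was found in 82.5% and Klrc1 in 36.6% of NK cells. At least 1 of the 10 was found in 99.9% of NK cells and 31.7% of T cells at 1000 UMIs. Cells that should lack these genes gave a background level, in which free RNA and other sources were not told apart. At least 1 gene was found in 1.01% of B cells (median 1597.5 UMIs per cell) and 2.07% of alveolar macrophages (2791.5). The medians were 1484 UMIs in NK cells and 1648 in T cells. Single genes were found in 0.0285% to 0.202% of B cells and 0.0258% to 0.827% of alveolar macrophages.

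In T cells as a whole Klrd1 was found in 19.3% at 1000 UMIs (25.0% unthinned, and 20.9% at 1000 UMIs without cluster 7), Klrk1 in 12.4%, Klrc1 in 8.88%, Klrc2 in 5.45%, Klre1 in 4.87% and the rest in 0.0523% to 2.82%. T cells differed by kind. Among cells of T cell cluster 1 with a UMI of Cd8a or Cd8b1 and none of Cd4 (1592 cells at 1000 UMIs), Klrd1 was found in 30.2%, Klrk1 in 13.1% and Klrc1 in 11.7%. Among those with a UMI of Cd4 and none of Cd8 (495 cells) the shares were 5.57%, 2.36% and 1.21%. Cells with a UMI of Trdc, the constant region of the δ chain (209 cells), held Klrd1 in 27.4%, Klrk1 in 23.6%, Klrc1 in 21.0%, Klrc2 in 10.3%, Klre1 in 8.52%, Klrb1c in 7.84% and Ncr1 in 2.21%. These pooled shares hide a spread over the 6 mice with at least 10 Trdc cells: Klrd1 was found in 15.1% ± 4.01 (SD, n = 3) of them in B6→B6 and 36.5% ± 9.49 (n = 3) in HLA→B6, Klrc1 in 12.4% ± 8.86 and 25.5% ± 7.20, and Klrk1 in 19.4% ± 10.5 and 24.3% ± 1.73. Klrb1c was found in 4.74% ± 0.555 of them in B6→B6 and 10.4% ± 1.54 in HLA→B6. HLA→B6 replicate 3 had 13 such cells. These differences between groups were not tested. Pooled over mice, Klrb1c was found in a larger share of the Trdc cells (7.84%) than of the Cd8 cells (1.11%). Klra4 and Klra8 were within or near the range seen in B cells and alveolar macrophages in each of these kinds of T cell (0 to 0.296%). No UMI of Klra4 was in any of the 227 Trdc cells before thinning, which allows a share of cells with a UMI of up to 1.32% and sets no limit on expression. Klra7 was found in 2.63% of Cd8 cells and before thinning in 0 of 556 Cd4 cells, which likewise allows a share with a UMI of up to 0.540%. The kinds were set by single UMIs with no Cd3 UMI required, and a cell with Trdc can also be in another of them. Before thinning, a Trdc UMI was found in 9.69% of the cells labelled NK, against 5.51% of T cell cluster 1. Such a UMI therefore does not by itself mark a γδ T cell, and NK-like cells among the Trdc cells were not told apart.

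Outside NK and T cells, most of these transcripts were in cells labelled myeloid. Of 27444 UMIs of the 10 genes, 65.7% were in NK cells, 26.5% in T cells, 4.21% in cells labelled myeloid and 1.89% in structural cells. The myeloid share was mostly Klrd1, at 228 CPM in the pooled myeloid cells and at 60.5 to 423 CPM in the 8 mice, lowest in B6→B6 replicate 4. That is above alveolar macrophages (0 to 12.8 CPM), monocytes (0 to 11.2 CPM) and B cells (0 to 8.22 CPM) in each mouse. At 1000 UMIs Klrd1 was found in 16.6% of myeloid cells (5.10% to 37.1% over mice, median 3400 UMIs per cell) and Klrk1 in 7.09%, against 0.503% for Klrb1c and 0.642% for Ncr1. Within these 541 cells, Cd209a, a lectin of monocyte-derived dendritic cells, was found in 37.2% of those with Klrd1 and 12.0% of those without, higher in 7 of 8 mice. A Cd3 UMI was found in 7.20% of those with Klrd1 and 29.4% of those without, and in no mouse more often with it. The second value rested on B6→B6 replicate 4, where it was 65.7%, and without that library the shares were 7.01% and 12.5%. Cd209a, Flt3 and Siglech, which is a lectin of plasmacytoid dendritic cells, were chosen after their values were seen. Flt3 was found in 16.9% against 10.6%, higher in 8 of 8 mice, and Siglech in 17.7% against 5.81%, higher in 6. Some mice add little to these tallies, for Cd209a and Cd3 as well. Only 14 of the 541 cells came from replicate 3 of HLA→B6, 14 from replicate 1 of B6→B6 and 14 from its replicate 5. Flt3 differed there by 0.98, 5.72 and 0.84 points. Without B6→B6 replicate 4 the shares with and without Klrd1 were 37.9% and 16.0% for Cd209a, 16.8% and 13.7% for Flt3, and 19.0% and 8.31% for Siglech.

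**Figure D2:**
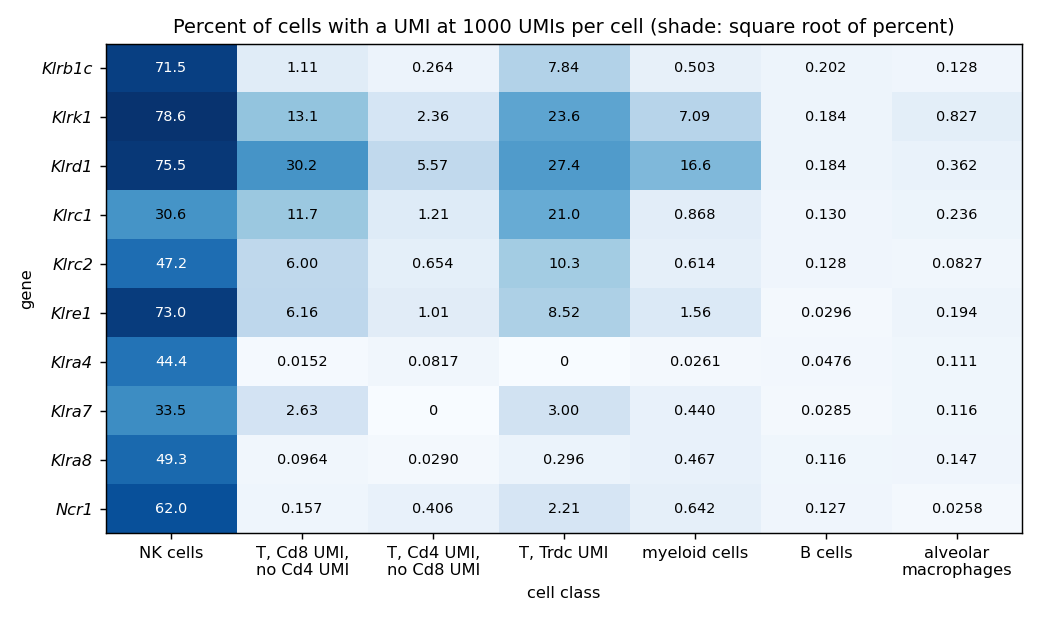
Percent of cells with a UMI of each gene (rows) at 1000 UMIs per cell, in NK cells, 3 kinds of T cell of cluster 1, myeloid cells, B cells and alveolar macrophages (columns), pooled over the 8 mice. The NK column runs from 30.6 to 78.6, Klrd1 reaches 30.2 in Cd8 T cells and 16.6 in myeloid cells, and B cells and alveolar macrophages stay below 1.

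Each NK cell uses only some Ly49 receptors. A transcript not found at 1000 UMIs can still be present, so the shares below do not show which receptors a cell lacks. Klra7, for example, was found in 33.5% of NK cells at 1000 UMIs and 41.8% unthinned. At least 1 of Klra4, Klra7 and Klra8 was found in 75.4% of NK cells at 1000 UMIs (69.0% to 79.8% over mice), and 2.69% of T cells. The promoters of the 3 are shown because each of the other two was found in a larger share of the cells with Klra8 than of those without it, as described next. They are 300 bases each around the annotated RefSeq start, on GRCm38.p6 and read on the minus strand of chromosome 6: chr6:130067222-130067521 for Klra4, chr6:130129849-130130148 for Klra8 and chr6:130233273-130233572 for Klra7. Capitals mark runs of at least 10 letters that all 3 hold, 36 bases in 3 runs, of which the longest is 14 bases.
Klra4: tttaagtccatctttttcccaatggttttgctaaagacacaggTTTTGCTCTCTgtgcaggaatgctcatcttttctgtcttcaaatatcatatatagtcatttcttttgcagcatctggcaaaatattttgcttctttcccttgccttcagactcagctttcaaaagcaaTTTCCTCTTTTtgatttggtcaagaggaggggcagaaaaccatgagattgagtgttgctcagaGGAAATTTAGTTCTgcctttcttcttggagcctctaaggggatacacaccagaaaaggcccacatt
Klra8: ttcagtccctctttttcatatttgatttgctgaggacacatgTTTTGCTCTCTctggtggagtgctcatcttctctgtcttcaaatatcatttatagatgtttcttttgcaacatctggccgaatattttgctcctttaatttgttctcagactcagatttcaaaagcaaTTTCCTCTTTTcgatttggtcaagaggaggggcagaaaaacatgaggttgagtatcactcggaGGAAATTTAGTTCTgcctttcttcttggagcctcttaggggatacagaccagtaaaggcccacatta
Klra7: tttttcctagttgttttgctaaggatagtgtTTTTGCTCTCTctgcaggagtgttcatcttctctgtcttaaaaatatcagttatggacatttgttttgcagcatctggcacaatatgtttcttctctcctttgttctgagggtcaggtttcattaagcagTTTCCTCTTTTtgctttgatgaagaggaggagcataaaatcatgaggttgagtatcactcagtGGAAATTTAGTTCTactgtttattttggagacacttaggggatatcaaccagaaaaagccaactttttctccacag

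Aligned over their length, the Klra4 and Klra8 promoters were 86.0% identical, Klra7 was 74.7% identical to Klra4 and 75.8% to Klra8, and pairs with or among the other 6 genes in the table were at most 53.9% identical. Klrd1 had no entry there. The promoters were searched on both strands for 3 short motifs, TGTGGT (Runx), TCACAC (T-box) and AGGAAG (ETS), each counted by itself also where matches overlapped. The Runx letters occurred in 6 of the 9 promoters and in 16.9% of all 27025 mouse promoters of this length, the T-box letters in 2 of 9 and 14.4%, and the ETS letters in 1 of 9 and 35.1%. None of the 3 occurred in the Klra promoters. The Ncr1 promoter (chr7:4337474-4337773, plus strand) is shown with its matches to the Runx and T-box letters in capitals, since it held 2 and 1 of them.
Ncr1: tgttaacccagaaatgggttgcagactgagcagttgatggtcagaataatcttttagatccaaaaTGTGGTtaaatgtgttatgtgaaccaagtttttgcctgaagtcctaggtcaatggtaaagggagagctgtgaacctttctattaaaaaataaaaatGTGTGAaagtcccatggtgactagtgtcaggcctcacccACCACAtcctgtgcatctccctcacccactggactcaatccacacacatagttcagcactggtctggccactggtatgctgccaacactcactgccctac

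Joint detection was read within mice, as the share of NK cells with 1 gene among cells with and without another, both at 1000 UMIs. These are differences in shares over 48 to 224 cells of a mouse, whose genes share a library and a depth, and they were not tested. Klra4 was found more often in cells with Klra8 than without it in 8 of 8 mice, by 18.5 percentage points in the median mouse (3.65 to 27.4). Klra7 was also found more often with Klra8 in 8 of 8 mice, by 10.5 points (6.12 to 14.3), and Klra4 with Klra7 in 5 of 8 (10.3 points, -2.76 to 21.3). The inhibitory Klrc1 went the other way. It was found less often in cells with Klra4 than without it in 8 of 8 mice, by 25.1 points in the median mouse (17.2 to 32.9). Pooled over mice, Klra4 was found in 24.7% of NK cells with Klrc1 and 53.1% of those without. Klrc1 was also less frequent with Klra8 in 8 of 8 mice, where the median difference was -13.3 points (-18.8 to -5.90), and with Klra7 in 7 of 8 (-9.24 points, -18.8 to 1.84). Klrc1 and Klrc2, whose products compete for Klrd1, went against each other in 7 of 8 mice, with a median of -11.0 points for Klrc1 given Klrc2 (-13.7 to 6.20). The part of their shared 3′ sequence in this was not tested. Klrc2 was found in a larger share of cells with Ncr1 than without it in 8 of 8 mice, by 5.69 points (1.12 to 13.4).

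**Figure D3:**
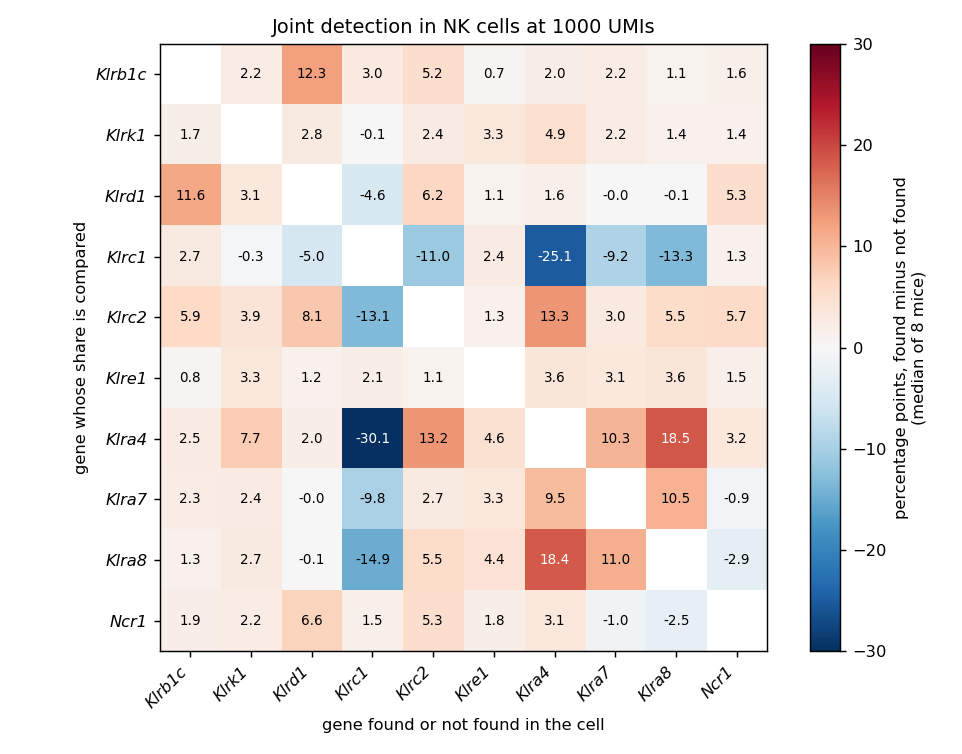
Difference, in percentage points, in the share of NK cells with the gene of the row between cells with and without the gene of the column, at 1000 UMIs per cell, as the median of 8 mice. Klrc1 and Klra4 have the lowest values (-30.1 and -25.1 points), and Klra4 and Klra8 have high ones (18.5 points).

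The second comparison asked whether the receptors differed between HLA→B6 and B6→B6 grafts within NK cells. No receptor passed the test, and neither did any other of the 2987 genes tested (0% called by edgeR's quasi-likelihood test on sums per mouse, Benjamini-Hochberg adjusted p under 0.05), with 97 genes at an unadjusted p under 0.05 and 0 called by DESeq2 (47 unadjusted). The log2 fold changes of the 10 genes ran from -0.11 ± 0.16 (SE) for Ncr1 to 0.23 ± 0.19 for Klra7, the other genes in between, each with an adjusted p of 0.998. Their median was 0.10, against -0.00077 over all genes tested. In each case the mice of the groups overlapped, while 1.34% of all genes tested had every HLA→B6 mouse above every B6→B6 mouse and 1.47% every one below. None of the 10 had an unadjusted p under 0.05 (1.64% of genes did so with a higher level in HLA→B6).

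Klrc2 and Klra4 show how the groups lay, with mice in order of replicate. Klrc2 stood at 603, 772, 706, 591 and 608 CPM in NK cells of the 5 B6→B6 mice and at 749, 746 and 772 CPM in those of the 3 HLA→B6 mice. The latter were close together and the highest B6→B6 mouse was level with them. Its log2 fold change was 0.23 ± 0.15. Klra4 stood at 952, 1162, 1312, 890.8 and 1506 CPM in B6→B6 and at 1108, 897 and 1409 in HLA→B6, with both groups spread over the same range and a log2 fold change of -0.0068 ± 0.19. Shares of NK cells gave the same picture at 1000 UMIs, for example 44.8% ± 5.53 (SD, n = 5) in B6→B6 and 44.6% ± 3.96 (n = 3) in HLA→B6 for Klra4, and 29.5% ± 3.11 and 31.9% ± 4.86 for Klrc1. With SEs between 0.14 and 0.19 on the log2 scale, small differences were not detectable in these sums.

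The third comparison put the same question to T cells, in which 7 of the 10 genes had enough counts to be tested. Klra4, Klra8 and Ncr1 did not. No receptor passed the test, where 5 of 7164 genes did (0.0698%), all of them higher in HLA→B6: Lag3 (log2 fold change 3.58), Nrn1 (3.43), Pdcd1 (3.07), Litaf (3.02) and Rgs16 (2.97). Lag3 and Pdcd1 encode inhibitory receptors of activated T cells. The 7 receptor genes had log2 fold changes from 0.36 to 1.05, all above 0, with a median of 0.80 against -0.016 over all genes tested. At an unadjusted p under 0.05, 3 of the 7 were higher in HLA→B6 (Klrd1, Klrc1 and Klrc2), as were 4.16% of all genes tested. DESeq2 called none of the 7 and 37 genes in all, with an adjusted p of 0.064 for Klrd1. A receptor passed under 2 of the 18 alternatives: Klrd1 in edgeR with no filter on low counts (log2 fold change 0.84, adjusted p = 0.046), and Klrc1 in edgeR with the set of linked libraries as a block (1.55, adjusted p = 0.025).

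Klrd1 was the 1 receptor whose groups did not overlap, as was so for 3.96% of all genes tested with HLA→B6 above (1.51% with HLA→B6 below, no receptor among them). By replicate number, it stood at 188, 211, 252, 146 and 204 CPM in T cells of the 5 B6→B6 mice, while the 3 HLA→B6 mice had 296, 442 and 350 CPM. Its log2 fold change was 0.82 ± 0.20 (SE), with an unadjusted p of 0.0014 and an adjusted p of 0.206 by edgeR's quasi-likelihood test. Klrc1 stood at 88.4, 118, 112, 22.3 and 40.3 CPM in B6→B6 and at 135, 221 and 117 in HLA→B6. The lowest HLA→B6 mouse lay just under the highest B6→B6 mouse, and B6→B6 replicates 4 and 5 were well below the rest. Its log2 fold change was 1.05 ± 0.42 (edgeR adjusted p = 0.600). Klrc2 stood at 59.9, 45.8, 66.2, 22.3 and 18.8 CPM in B6→B6 and at 71.8, 88.8 and 61.5 in HLA→B6, again with replicates 4 and 5 lowest and a log2 fold change of 0.80 ± 0.33 (edgeR adjusted p = 0.604). Klra7 (0.92 ± 0.48), Klre1 (0.62 ± 0.37), Klrk1 (0.49 ± 0.35) and Klrb1c (0.36 ± 0.34) followed with edgeR adjusted p of 0.740 to 0.911.

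Without cluster 7, the T cells of B6→B6 replicate 4 stood at 272 CPM for Klrd1, 40.0 for Klrc1 and 36.3 for Klrc2, and those of the other mice as before. Klrd1 still had every HLA→B6 mouse above every B6→B6 mouse (5.18% of genes tested), with a log2 fold change of 0.57 ± 0.18 and an edgeR adjusted p of 0.240. The values were 0.92 ± 0.28 for Klrc1 (edgeR adjusted p = 0.215) and 0.62 ± 0.24 for Klrc2 (edgeR adjusted p = 0.403). No receptor passed, where 30 of 7106 genes did (0.422%). Klrc1, Klrc2, Klrd1 and Klra7 had an unadjusted p under 0.05 and a higher level in HLA→B6, as did 4.88% of genes.

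**Figure D4:**
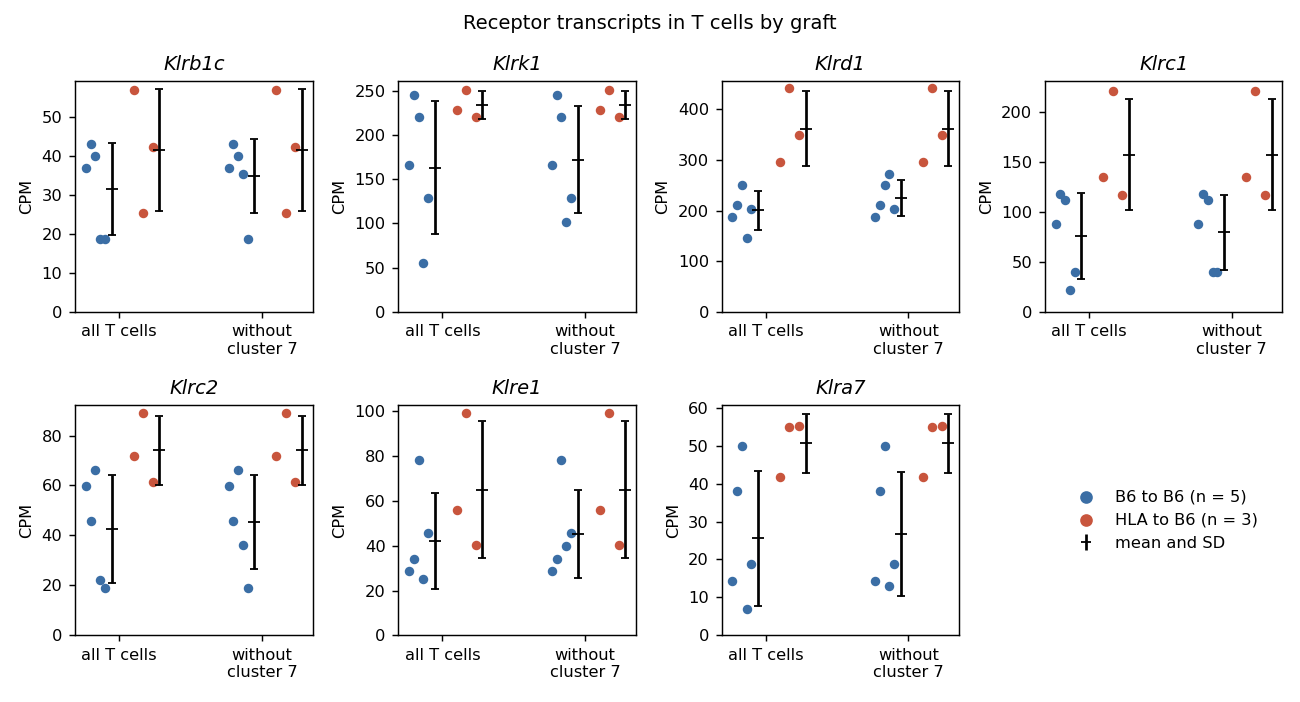
CPM in T cells for the 7 receptor genes tested, in all T cells and without cluster 7, with 1 point per mouse and the mean and SD of B6→B6 (blue, n = 5) and HLA→B6 (red, n = 3). The groups are apart for Klrd1 (296 to 442 against 146 to 252 CPM in all T cells) and overlap for the other 6.

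Cd8 T cells made up a varying part of the T cells, and their share was higher in 2 of the 3 HLA→B6 mice than in any B6→B6 mouse. Cells with a Cd8 and no Cd4 UMI were 31.3%, 30.2%, 36.2%, 41.9% and 38.1% of cluster 1 in the 5 B6→B6 mice, against 35.7%, 55.0% and 49.4% in the 3 HLA→B6 mice, which overlap them. Its part in the differences over all T cells was not tested. In T cells of cluster 1 with a UMI of Cd8a or Cd8b1, no receptor passed the test, where 70 of 4133 genes did (1.69%). Klrd1 stood at 363, 402, 340, 305 and 276 CPM in B6→B6 and at 412, 528 and 444 in HLA→B6, still without overlap (7.79% of genes tested), and its log2 fold change was 0.32 ± 0.15 (edgeR adjusted p = 0.355). The value over all T cells of cluster 1 was 0.57, and the 2 were not tested against each other. Klrc1 kept a log2 fold change of 0.95 ± 0.30 (edgeR adjusted p = 0.122) and Klrc2 one of 0.87 ± 0.28 (edgeR adjusted p = 0.129). With Klre1 (0.73 ± 0.34), 4 of the 6 receptors tested had an unadjusted p under 0.05 and a higher level in HLA→B6, as did 7.14% of genes.

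At equal depth, Klrc1 was found in 8.79%, 9.89%, 6.12%, 4.37% and 3.81% of T cells with a Cd8 and no Cd4 UMI of the 5 B6→B6 mice, and in 10.8%, 17.2% and 10.7% of those of the 3 HLA→B6 mice. Klrc2 was found in 4.45%, 5.01%, 3.43%, 2.84% and 0.922% against 6.35%, 8.25% and 5.21%. The groups were apart for these 2 of the 6 receptors tested in Cd8 cells, as for 8.32% of the 4133 genes with HLA→B6 above. In CPM they overlapped in the cells with a Cd8 UMI, where the highest B6→B6 mouse was at 141 CPM for Klrc1 and 60.6 for Klrc2 and the lowest HLA→B6 mouse at 112 and 59.7. Klrd1 was found in 29.3%, 31.6%, 25.8%, 23.2% and 19.5% against 29.4%, 34.8% and 30.4%, and the groups overlapped. These 3 genes were found in 0.128% to 0.184% of B cells.

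The difference between the 2 cell types in the effect of the graft was tested as an interaction over the NK and T sums of all 8 mice. No receptor passed, where 17 of 5660 genes did (0.3%). The log2 fold change in NK cells minus that in T cells was -1.08 ± 0.40 for Klrc1 and -0.75 ± 0.25 for Klrd1 (edgeR adjusted p = 0.669 and 0.521). In edgeR 4 of the 10 had an unadjusted p under 0.05 in that direction (Klrc1, Klrc2, Klrd1 and Ncr1), as did 3.62% of genes. Ncr1, like Klra4 and Klra8, had too few counts for the test within T cells and entered this fit through its NK counts. Its value is therefore not read as a result on T cells. Klrc1 passed with no filter on low counts (-1.08, edgeR adjusted p = 0.012), and DESeq2 called 3 genes and no receptor. Values for Klra4, Klra8 and Ncr1 rest on 5, 15 and 71 counts in T cells. Without cluster 7 the difference was -0.82 ± 0.29 for Klrc1 and -0.48 ± 0.20 for Klrd1, the 2 receptors that then had an unadjusted p under 0.05, and 23 genes but no receptor passed the edgeR threshold.

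**Figure D5:**
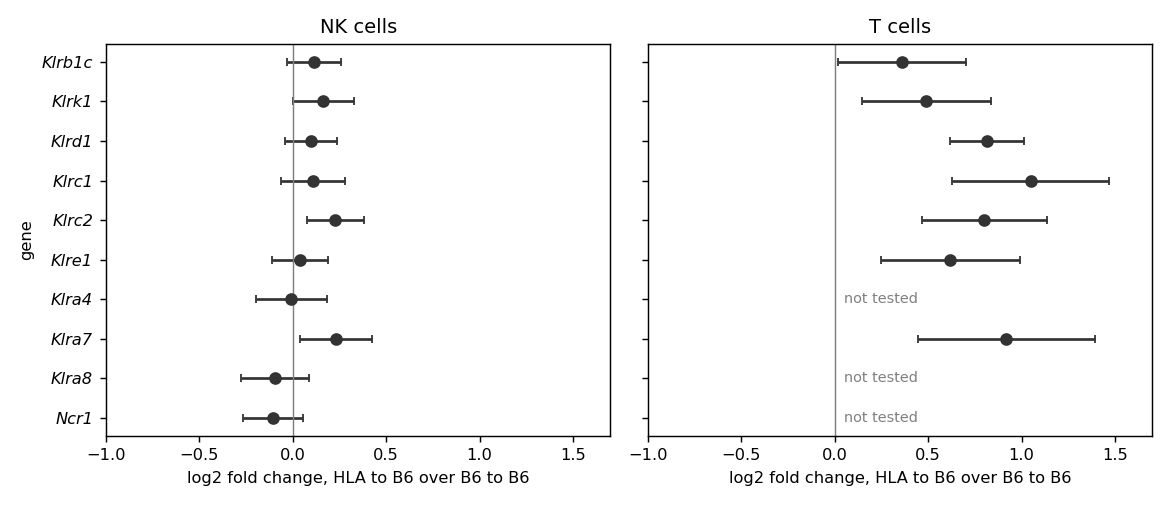
Log2 fold change of HLA→B6 over B6→B6 with its SE for each receptor gene in NK cells (left) and T cells (right), from edgeR on sums per mouse. In NK cells the values lie between -0.11 and 0.23, in T cells the 7 genes tested lie between 0.36 and 1.05, and none passed an adjusted p of 0.05.

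The partners of these receptors were described from lists by role. The counts below are to be set beside the 14.5% of 5660 genes tested that were higher in NK than in T cells in 8 of 8 mice. Of 15 adaptor and signalling genes, 8 were higher in NK than in T cells in 8 of 8 mice, led by Tyrobp (DAP12, through which Klra4 and Klra8 signal) at 4271 CPM in NK cells and 27.4 in T cells. Hcst (DAP10, the adaptor of Klrk1), chosen after its values were seen, was closer, at 804 and 558 CPM. Of 21 other lectin-like receptor genes, 8 were higher in NK cells in 8 of 8 mice, and the highest was Klra9 at 801 CPM against 22.8. Of 11 other NK receptors 5 were, led by Il2rb, a chain of the receptor for IL-2 and IL-15, at 1117 CPM against 333. Of 10 transcription factors 5 were, led by Id2 at 2357 CPM against 803. Of 11 genes for ligands 2 were, with H2-D1 highest at 5274 CPM against 3821, and of the ligands of Klrk1, also picked after their values were seen, Raet1e, H60c and Raet1d had no count in NK cells and Ulbp1 had 7 (4.33 CPM, against 4.59 in T cells). Between groups none of the genes of these 5 lists passed the test in NK cells or in T cells. In the interaction 2 did, where 0.3% of all genes tested did, both with the lower log2 fold change in NK cells: Cd244, a receptor of the SLAM family (-2.39 ± 0.45, edgeR adjusted p = 0.016, on 101 counts in T cells, too few for the test within them), and Fcer1g, an adaptor of Ncr1 (-1.15 ± 0.24, edgeR adjusted p = 0.034).

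Over the 11 labelled cell types, pooled over mice, the genes whose log2 CPM was most like the mean of the 10 receptors were Klra1 and Klrg1 (r = 0.984 for both), Prf1 (0.982), Eomes (0.968), Klri2 (0.966), Samd3 (0.963), Fasl (0.961), Kcnk7 (0.960), Gm33104 (0.956) and Gm5127 (0.955). Kcnk7 and Gm5127 had 8 and 5 counts in NK cells. These are descriptions over 11 points that differ in depth and cell number. Among the receptors themselves r ran from 0.879 for Klra4 to 0.991 for Klre1, with Klrd1 at 0.926.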

How the data were processed

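Single cells of left lung grafts from 8 mice were measured as UMI counts of transcript 3′ ends. The authors made the counts with Cell Ranger on mm10, and state that barcodes under 200 UMIs and genes in fewer than 3 cells were left out and that free RNA was removed with SoupX. Whether the deposited counts precede that removal is not stated, and tool versions are not given in the sources used here. Cell types and clusters are the authors' labels, made with Seurat and clustifyr, and the mouse of each cell came from the deposited cell annotation. The members and gene lists were chosen with earlier results of these data known.

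For each mouse, the counts of its NK cells and of its T cells (at least 10 cells) were added up and tested with edgeR 4.0.16 in R 4.3.3 (TMM, filterByExpr, quasi-likelihood test, Benjamini-Hochberg over all genes tested, threshold 0.05). The interaction was fitted with mouse, cell type and cell type by group. CPM is a gene's count over all UMIs of that cell type in a mouse, and log2 ratios within a mouse carry 1 CPM added, while ratios of pooled CPM carry none. Shares are expected values after hypergeometric thinning to 1000 UMIs, with shallower cells left out. Intervals and the limits set by a count of 0 (3 counts) cover counting error only. NK and T cells were not tested against each other. The text names the 10 receptors, genes of the lists by role that passed or were highest in NK cells, and the 10 most alike in pattern. It also names the 5 genes that passed in T cells, where at most 3 rises had been planned. Marker genes, and genes picked after their values were seen, such as Hcst and the ligands of Klrk1, are named besides. No doublets were removed; Scrublet marked 3 NK and 17 T cells, which were left out in an alternative. Other alternatives were DESeq2 1.42.0, no low-count filter, other depths, each mouse left out, cells with shared barcodes left out, cells split by Cd3 UMIs, a block for linked libraries and a replicate block. T cells without cluster 7, Cd8 T cells and myeloid cells without B6→B6 replicate 4 were added after seeing the data. Calculations were tested on simulated data. Sequences came from RefSeq promoters on GRCm38.p6 (9 of 10 genes matched) and positions from GENCODE vM21.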

Additional observations from a re-analysis of the deposited data

Results flagged for a closer look

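Of 40 groups of mice tested for a single value far from the others, 4 held one, where chance gives about 1 in 20 groups. In NK cells, Klra7 stood at 772 CPM in B6→B6 replicate 5, above the 467 to 543 CPM of the other B6→B6 mice. Ncr1 stood at 836 CPM in the NK cells of B6→B6 replicate 4, below the rest of its group, and was found in 54.0% of those cells at equal depth. The summed T cell markers in NK cells were highest in the same library, at 626 CPM, and their part in this value was not tested. Klra8 was found in 0.188% of the T cells of B6→B6 replicate 4, above the other B6→B6 mice, on 2 UMIs in all T cells of that mouse, cluster 7 included.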

How the results depend on the processing

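The receptors stood higher in NK than in T cells, 10 of 10, under each of 13 alternatives. Those that left out 1 mouse could not change this, since it held in 8 of 8 mice. The number of genes called between groups moved more. In NK cells (0) it was 38 with no filter on low counts, 1 with cells split by Cd3 UMIs and 0 to 4 with 1 mouse left out. In T cells (5) it was 37 with DESeq2, 61 with no filter, 2 with the Cd3 split, 39 with the linked library set as a block, 30 without cluster 7 and 70 in Cd8 T cells. Leaving out 1 mouse gave 0 to 24 there, with 0 without B6→B6 replicate 1 or 5 or HLA→B6 replicate 1 or 2, and 24 without B6→B6 replicate 4. For the interaction (17) it was 3 with DESeq2, 50 with no filter and 6 to 23 with 1 mouse left out, lowest without HLA→B6 replicate 2 and highest without B6→B6 replicate 4. The cause was not tested.

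The median share over the 10 receptors was 38.8% of NK cells at 500 UMIs, 68.6% at 2000 UMIs and 68.6% unthinned, against 56.5% at 1000 UMIs (55.6% to 58.2% with 1 mouse left out). In T cells it was 1.98%, 5.74% and 5.39%, against 3.49% (3.26% to 3.72%).

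Small log2 fold changes changed sign, none of them called. In NK cells Klra4 was 0.0084 with no filter and 0.0062 in cells of at least 500 UMIs, and with 1 mouse left out it ran from -0.20 to 0.13, Klrc1 from -0.024 to 0.22, Klre1 from -0.13 to 0.12 and Ncr1 from -0.22 to 0.020. In the interaction Klrb1c was 0.071 without cluster 7 and ran from -0.62 to 0.080 with 1 mouse left out, and Klra4 from -0.52 to 2.23.

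Replicate numbers are shared by different mice. Deviations of same-numbered mice correlated at -0.139 to 0.073 in NK and -0.185 to 0.132 in T cells, and no HLA→B6 mouse correlated best with its own number, so the numbers were not used to pair mice. With a replicate block, 8 genes were called in NK and 39 in T cells, and the log2 fold change was -0.045 for Klre1 and 0.049 for Klra4 in NK cells and -0.086 for Klrb1c in T cells.

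Klra4, Klra8 and Ncr1 had 5, 15 and 71 counts in all T cells, too few for the test between groups.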
